A study of Mus musculus with 5 samples.

Results

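The genes described here are 39 genes of the sarcomere and the muscle fibre, out of 18132 genes listed in at least 1 of the 4 day tables. They were chosen by name and grouped by role: 5 embryonic and early forms (Myh3, Myh8, Myl4, Actc1, Tnnt2), 6 slow forms (Myl2, Myl3, Tnnt1, Tnni1, Tnnc1, Mybpc1), 14 fast forms (Myh1, Myh2, Myh4, Myl1, Mylpf, Tnnt3, Tnni2, Tnnc2, Actn3, Mybpc2, Myoz1, Pvalb, Atp2a1, Casq1), 3 genes of fibre metabolism (Ckm, Eno3, Mb) and 11 shared scaffold genes and regulators (Acta1, Actn2, Tpm1, Tpm2, Ttn, Neb, Mybph, Tcap, Ldb3, Des, Mef2c). Each was summed over the cells of each label that the authors gave, on each day. The study profiled single cells of the tibialis anterior, a fast muscle of the lower leg, in C57Bl/6 mice that were uninjured (day 0) or had been injured with notexin, a snake venom toxin that destroys fibres and spares many satellite cells. Cells were released with Collagenase D and Dispase II, live cells were taken by flow sorting with propidium iodide and Calcein-AM, and droplet libraries that read the 3′ ends of RNA were made. The groups were uninjured 4 month old females (2 sequencing runs, deposited as 1 table in which they cannot be told apart), and notexin-injured mice at day 2 (7 month old, female), day 5 (4 month old, female) and day 7 (4 month old, male). All mice had the same genotype, and no label says how many mice were pooled. With 1 table a day and a change of age at day 2 and of sex at day 7, day cannot be told apart from these, and no test between days was possible.

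The sarcomere is the contractile unit of striated muscle, in which myosin thick filaments pull on actin thin filaments and the troponin complex on the thin filament makes the pull depend on calcium. Most of its proteins come as a family of forms from separate genes. Embryonic or cardiac-type forms are made first in newly differentiating muscle cells and again after injury, and fast or slow forms replace them as fibres mature. Satellite cells, the muscle stem cells (MuSCs) marked by Pax7, divide as myoblasts and switch on Myog, a transcription factor of differentiation, before they fuse into fibres.

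In the GRCm38 annotation the 39 genes lie on 13 chromosomes. The 5 myosin heavy chain genes lie side by side on the plus strand of chromosome 11, in the order Myh3, Myh2, Myh1, Myh4 and Myh8, between positions 67078300 and 67308634. The fast pair Tnni2 (142441808 to 142444410) and Tnnt3 (142498836 to 142516009) lies on chromosome 7, and the pair Tnni1 (135779434 to 135810989) and Tnnt2 (135836354 to 135852260) lies on chromosome 1. Promoters are shown for 4 early or slow genes with large ratios between progenitors with and without Myog (Actc1, Tnnt2, Tnni1, Myh3) and for 2 that were abundant in the mature muscle label (Mylpf, Ckm), as the RefSeq sequence (GRCm38.p6) from 250 bases before to 50 after a RefSeq start of the gene, on the gene's strand. For Actc1, Tnni1, Mylpf and Ckm this start lies inside the wider span that the GENCODE annotation gives the gene, and for Tnni1 and Tnnt2 the more upstream of 2 entries is shown. Of the 39 genes, 33 matched such an entry and had 42 promoters between them; Actn3, Tnnt3, Tnni2, Neb, Tcap and Myoz1 are named only. Capitals mark letters of any of 5 motifs: the E-box CANNTG and its form CAGCTG, which is contained in it, the TATAAA box (plus strand of the gene only), the MEF2 box and the CArG box (the others on both strands).
Actc1, chr2:114052826-114053125, minus strand: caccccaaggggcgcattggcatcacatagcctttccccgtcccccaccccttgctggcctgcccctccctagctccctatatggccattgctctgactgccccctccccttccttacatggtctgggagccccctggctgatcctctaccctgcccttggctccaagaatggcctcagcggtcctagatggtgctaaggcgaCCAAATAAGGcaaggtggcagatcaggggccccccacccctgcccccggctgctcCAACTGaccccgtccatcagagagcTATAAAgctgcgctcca
Tnnt2, chr1:135836084-135836383, plus strand: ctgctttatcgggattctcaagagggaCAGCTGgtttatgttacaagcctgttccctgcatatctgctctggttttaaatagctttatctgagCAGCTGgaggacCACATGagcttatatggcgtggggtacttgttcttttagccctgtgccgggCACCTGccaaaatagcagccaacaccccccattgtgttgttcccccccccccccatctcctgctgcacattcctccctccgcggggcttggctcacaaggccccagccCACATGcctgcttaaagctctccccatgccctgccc
Tnni1, chr1:135799171-135799470, plus strand: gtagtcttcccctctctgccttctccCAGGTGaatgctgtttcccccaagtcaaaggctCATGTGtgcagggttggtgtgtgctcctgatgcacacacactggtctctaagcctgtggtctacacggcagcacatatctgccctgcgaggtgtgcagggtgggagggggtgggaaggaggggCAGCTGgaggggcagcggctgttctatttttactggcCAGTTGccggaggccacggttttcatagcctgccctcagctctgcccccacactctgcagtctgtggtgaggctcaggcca
Myh3, chr11:67078050-67078349, plus strand: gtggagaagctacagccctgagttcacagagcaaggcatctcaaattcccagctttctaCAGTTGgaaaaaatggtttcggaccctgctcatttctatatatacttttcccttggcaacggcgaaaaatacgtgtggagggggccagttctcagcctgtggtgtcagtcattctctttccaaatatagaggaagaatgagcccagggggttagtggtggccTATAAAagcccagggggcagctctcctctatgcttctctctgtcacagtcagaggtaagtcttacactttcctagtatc
Mylpf, chr7:127211358-127211657, plus strand: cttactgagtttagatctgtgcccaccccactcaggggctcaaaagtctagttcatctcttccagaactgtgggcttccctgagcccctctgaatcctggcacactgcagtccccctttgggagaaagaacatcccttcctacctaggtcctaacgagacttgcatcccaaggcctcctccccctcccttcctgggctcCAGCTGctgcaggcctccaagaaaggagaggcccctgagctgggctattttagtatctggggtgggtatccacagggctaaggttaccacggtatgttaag
Ckm, chr7:19410844-19411143, plus strand: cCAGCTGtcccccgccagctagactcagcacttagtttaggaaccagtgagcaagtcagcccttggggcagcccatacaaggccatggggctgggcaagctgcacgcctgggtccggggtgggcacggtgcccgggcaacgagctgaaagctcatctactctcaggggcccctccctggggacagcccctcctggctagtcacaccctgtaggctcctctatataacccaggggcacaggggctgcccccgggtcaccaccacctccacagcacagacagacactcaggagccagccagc
E-boxes bind dimers of myogenic factors such as Myod1 and Myog, the MEF2 box binds MEF2 proteins including Mef2c, and the CArG box binds serum response factor. The Tnnt2 window held 5 E-boxes, 2 of them CAGCTG, and the Tnni1 window held 4, 1 of them CAGCTG. Mylpf and Ckm held 1 E-box each, both times in the CAGCTG form. Actc1 held 1 E-box, 1 TATAAA and 1 CArG box, and Myh3 held 1 E-box and 1 TATAAA. Over all 32851 promoters of this length, CANNTG was present in 72.3%, CAGCTG in 16.3%, TATAAA in 8.32%, the MEF2 box in 3.19% and the CArG box in 1.63%. Among the 42 member promoters the shares were 83.3%, 45.2%, 16.7%, 11.9% and 14.3% in the same order. A match says only that these letters are in the window.

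The 4 tables held 5176, 4903, 2164 and 5680 labelled cells at days 0, 2, 5 and 7, with 22330278, 57723171, 5986701 and 40427212 unique molecular identifiers (UMIs, counted RNA molecules) and medians of 3832.5, 9683, 2018 and 5991 UMIs a cell. Levels are given as counts per 1000000 UMIs of the summed cells (cpm). Since each molecule is read once at its 3′ end, cpm was not divided by gene length. Intervals are exact 95% intervals and cover counting error only, not the spread between mice. For a gene with no UMI, the level that this allows is given as that of 3 counts, which is not the end of such an interval. A table lists a gene only if at least 3 barcodes hold a UMI of it: Myh3, Myh8, Tnnt2 and Mybph were not listed at day 0, Myh8 and Myh2 at day 2 and Myh3 at day 5. Between 9 and 40 barcodes were shared by any pair of tables. The label for muscle stem cells and progenitors (below, the MuSC label) held 58, 40 and 396 cells at days 2, 5 and 7 with medians of 34387, 2524.5 and 5881 UMIs. The label for mature skeletal muscle (below, the muscle label) held 62 and 56 cells at days 5 and 7 with medians of 1608 and 5728 UMIs, and there was no such label at days 0 and 2. All 5 satellite cell and progenitor markers were above 0 in the MuSC label at days 2 and 7. At day 5 Myog was at 0, which allows up to 23.6 cpm, and Pax7 stood at 13.8, 189 and 82.5 cpm in turn.

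The muscle label carried the fast programme at both days. Its 39 genes together took 21.5% of all UMIs at day 5 and 33.8% at day 7. The fast forms summed to 149496 (147563 to 151448) cpm and 215856 (214478 to 217240.5) cpm, against 1061 and 2398 cpm for the embryonic and early forms and 891 and 1029 cpm for the slow forms. Of 38 and 39 listed genes, 37 and 38 had a UMI there. Only Myl2, the slow and cardiac regulatory light chain, had none, which allows up to 19.6 cpm at day 5 and 6.89 cpm at day 7. At day 5 the highest genes were Mylpf, the fast regulatory light chain, at 39746 cpm, Tnnc2, fast troponin C, at 37913 cpm, and Myl1, the fast essential light chain, at 23511 cpm. At day 7 they were Mylpf at 67371, Myl1 at 51495 and Acta1, skeletal alpha-actin, at 48656 cpm.

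**Figure D1:**
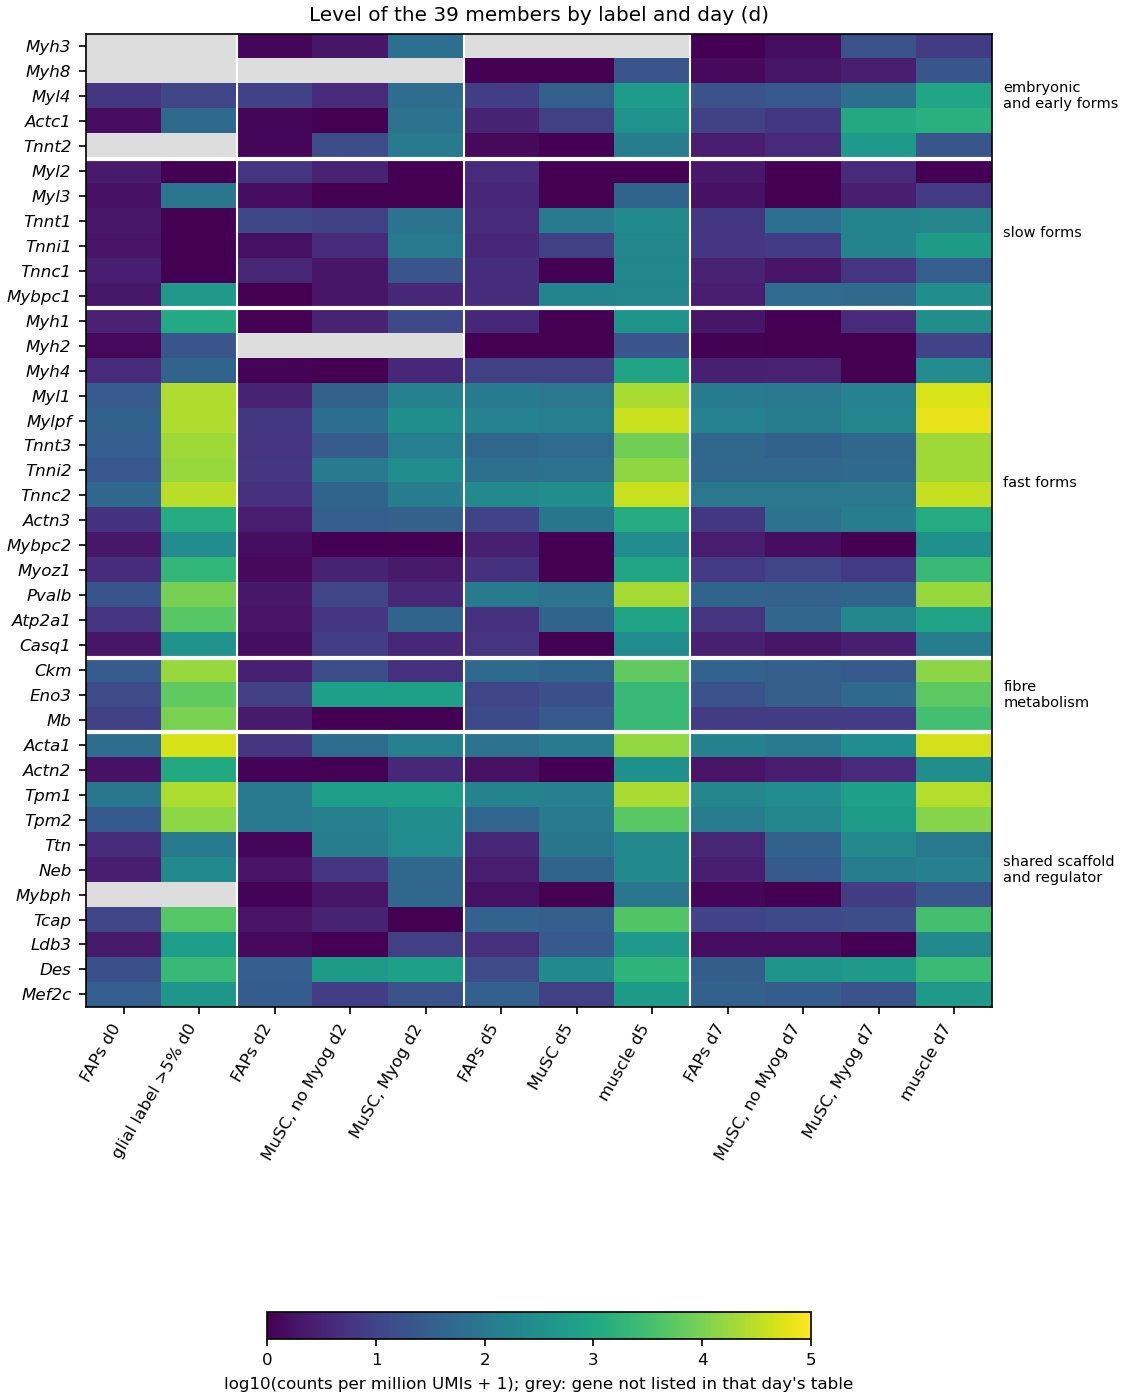
Level of each of the 39 genes (rows, grouped by role) in the labels and days shown (columns), as log10 of cpm + 1 from dark (low) to bright (high); grey marks a gene that the day's table does not list. The muscle label and the 17 fibre-rich cells of the day 0 glial label are bright across most fast forms and darker in the early and slow forms, and Actc1 and Tnnt2 stand out in the day 7 MuSC-label cells with Myog.

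In the troponin families the fast member, and in the actin family the skeletal one, made up nearly all of the muscle label's molecules at both days. Acta1 outweighed Actc1, the cardiac alpha-actin that early muscle also makes: Actc1 held 2.31% (1.75 to 2.98) of the actin molecules at day 5 and 2.94% (2.72 to 3.17) at day 7. Tnni1, slow troponin I, held 1.31% (0.888 to 1.87) and 2.62% (2.29 to 2.97) of troponin I, the rest being the fast Tnni2. Tnnt3, fast troponin T, held 95.7% and 99.0% of troponin T. Myosin heavy chain was the family in which the order of the leading forms differed between the days. Myh4 (the fast IIb chain) held 66.1% (59.0 to 72.8) and Myh1 (the fast IIx chain) 30.7% (24.3 to 37.8) at day 5, whereas at day 7 Myh1 held 49.4% (43.1 to 55.7) and Myh4 44.3% (38.1 to 50.6), with overlapping intervals. The perinatal Myh8, the fast IIa Myh2 and the embryonic Myh3 held 3.53%, 1.57% and 1.18% at day 7. Of the 62 cells at day 5, 9 held UMIs of both Myh1 and Myh4, 8 of Myh1 only and 33 of Myh4 only; of the 56 at day 7 these numbers were 17, 18 and 14. Heavy chain and actin genes have near-identical coding sequences, and how ambiguous reads were assigned is not given in the sources used here.

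At day 7 the muscle label held more RNA of skeletal actin, beta-tropomyosin, fast troponin T and the enzymes Ckm and Eno3 than at day 5, and less of the heavy chain Myh4, Mybph, Tnnt2 and Tnnc1. A gene is called higher or lower here when the ratio of the 2 sums was at least 2-fold and they held at least 20 UMIs together; with 1 library a day this is a rule of size and not a test, and the interval of each ratio covers counting error only. Of the 34 genes measured in this way 9 were higher, 7 lower and 18 neither, where 15.0% of the 2372 genes measured were called higher and 15.8% lower. The median log2 ratio was 0.07 over the 34 genes and -0.07 over all measured genes. The members' own share of the UMIs differed between the days, and with a scaling to the median ratio over genes, which shifted the ratios by 0.31, 10 were higher and 4 lower (71.4% of calls higher, against 56.2%). Ttn (-0.80), Ldb3 (-0.88) and Casq1 (-0.74) then lay within 2-fold. Leaving the members out of the totals gave the same split.

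**Figure D2:**
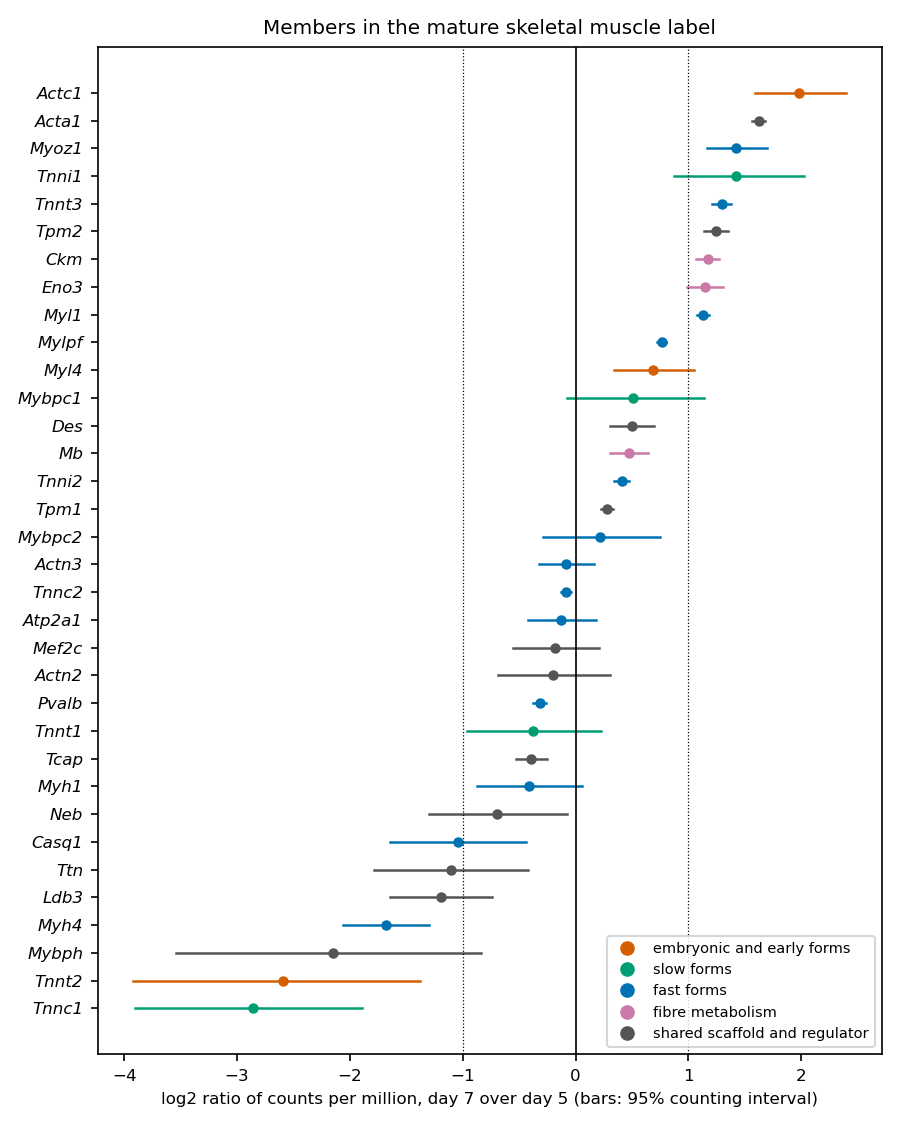
Log2 ratio of day 7 over day 5 in the muscle label for each of the 34 measured genes, ordered by ratio and coloured by role, with 95% counting intervals; dotted lines mark 2-fold. Actc1 lies highest at 1.98 and Tnnc1 lowest at -2.86, and both ends hold genes of several roles.

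Among the embryonic and early forms, Actc1 was higher and Tnnt2 lower of 3 measured. Actc1 stood at 373 (283 to 484) cpm at day 5 and 1475 (1363 to 1593) cpm at day 7, a log2 ratio of 1.98 (1.59 to 2.40); 1 cell held 52.6% of its 57 UMIs at day 5. Tnnt2, the cardiac troponin T that early muscle also makes, stood at 124 (74.9 to 194) and 20.7 (9.45 to 39.2) cpm, a log2 ratio of -2.59 (-3.92 to -1.38). The 2 early forms thus stood on opposite sides. Myl4, the embryonic and atrial light chain, stood at 544 and 875 cpm (0.69, interval 0.34 to 1.05), and 1 cell held 62.5% of its UMIs at day 7. Myh8 had 3 and 9 UMIs, and Myh3 was not listed at day 5 and had 3 at day 7.

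Of the slow forms 1 was higher and 1 lower of 4 measured. Tnni1 stood at 196 (133 to 280.5) and 526 (460.1 to 599) cpm (log2 ratio 1.42, interval 0.87 to 2.02), with 44.5% of the day 7 UMIs in 1 cell. Tnnc1, the troponin C of slow and cardiac muscle, stood at 216 (149 to 304) and 29.9 (15.9 to 51.1) cpm (-2.86, interval -3.91 to -1.89). Tnnt1, slow troponin T, and Mybpc1, the slow form of myosin-binding protein C, passed in neither direction, at -0.38 and 0.51. Mybpc1 was found beside its fast counterpart Mybpc2: 32 of the 56 cells at day 7 held both, 9 Mybpc1 only and 12 Mybpc2 only, and of the 62 at day 5 these were 11, 8 and 19. Myl3, the slow light chain, had 6 and 3 UMIs.

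Of the fast forms 3 were higher and 2 lower of 13 measured. Myoz1, a Z-disc protein of fast fibres, stood at 864 and 2322 cpm (1.43, interval 1.16 to 1.70), Tnnt3 at 8075 and 19796 (1.29, interval 1.21 to 1.38) and Myl1 at 23511 and 51495 (1.13, interval 1.08 to 1.18). Myh4 went from 832 (693 to 989.6) to 259.5 (214 to 312) cpm (-1.68, interval -2.06 to -1.30) and Casq1, the calcium store protein of the fast sarcoplasmic reticulum, from 275 to 133 (-1.05, interval -1.64 to -0.44). The other fast forms measured lay within 2-fold. Tnnc2 was nearly level, at 37913 and 35697 cpm (-0.09), as were Actn3, the fast alpha-actinin (-0.08), and Atp2a1, the fast calcium pump SERCA1 (-0.13). Pvalb, the calcium buffer of fast fibres, stood at 20741 and 16619.8 cpm (-0.32), Tnni2 at 0.41, Mylpf at 0.76, Mybpc2 at 0.21 and Myh1 at -0.42 (-0.87 to 0.05). Myh2 had 3 and 4 UMIs.

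Both enzymes of the metabolism group were higher: Ckm, muscle creatine kinase, at 6117 and 13758 cpm (1.17, interval 1.07 to 1.27) and Eno3, the muscle enolase, at 2436 and 5393 (1.15, interval 0.99 to 1.31). The oxygen store myoglobin (Mb) passed in neither direction, at 0.47. Among the scaffold genes and regulators 2 were higher and 3 lower of 11. Acta1 stood at 15816 (15191 to 16459.7) and 48656 (48003 to 49316) cpm (1.62, interval 1.56 to 1.68) and Tpm2, beta-tropomyosin, at 5305 and 12568 (1.24, interval 1.14 to 1.35). Lower were Mybph, myosin-binding protein H (91.7 and 20.7 cpm, -2.15, interval -3.54 to -0.84), Ldb3, the Z-disc protein also called Cypher (504 and 220.5, -1.19, interval -1.64 to -0.74), and Ttn, titin (223 and 103, -1.11, interval -1.78 to -0.42). The remaining 6 lay between -0.70 for Neb, nebulin, and 0.50 for Des, desmin, with Tcap, the titin cap, at -0.39, Actn2 at -0.20, Mef2c at -0.18 and Tpm1, alpha-tropomyosin, at 0.28.

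Markers of other cell types in the muscle label differed between the days. The 6 FAP markers (FAPs are fibro-adipogenic progenitors, the connective tissue cells of muscle) summed to 2358 cpm at day 5 and 1040.5 at day 7, with all 6 above 0 on both days. The 5 macrophage markers summed to 151 and 3092 cpm, with 4 and 5 above 0, and their part in the result was not tested. Further genes of muscle were listed by role, with earlier results of these data known. Among the contractile and Z-disc genes, 1 of 20 measured was higher at day 7 (Myoz2, 1.47) and 10 were lower. The lowest were the Z-disc and costamere genes Csrp3 (-2.69), Xirp2 (-2.54), Ankrd2 (-2.37) and Nrap (-2.23). The median log2 ratio of the 20 was -1.03. Over all 2372 measured genes 15.0% were higher and 15.8% lower. The scaling to the median ratio, which took the members called lower from 7 to 4, was not applied to these further lists. Of 12 measured excitation and calcium genes 1 was higher, Cacnb1 (1.30), and 2 were lower, Cacna1s, the voltage sensor (-3.01), and Asph (-2.00). Of 14 other metabolic genes 0 were higher and 2 lower, the respiratory chain subunits Cox8b (-1.59) and Cox6a2 (-1.37). Of 4 progenitor and fusion genes 1 was higher, Ckb, brain creatine kinase (3.07), and 2 were lower, Myf6 (-1.01) and Mef2a (-1.03).

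Cell by cell, the fast fibre list (the 14 fast forms with Ckm and Acta1) took a median of 18.3% of a cell's UMIs in the muscle label at day 5, with a range from 4.18% to 33.5%, and 32.1% at day 7, from 4.49% to 40.7%. At day 0 no label named muscle, and cells with such shares stood under the label for neural, glial and Schwann cells. Of its 71 cells 17 had 12.4% to 27.1% of their UMIs on the list, and the other 54 had at most 1.52%, with none between. The 6 mature muscle markers summed to 113471 cpm in the 17 cells and 1485 in the 54; they share genes with the list that split the label, so this pair is a description only. A single cell of the 17 held 23.8% of their UMIs.

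**Figure D3:**
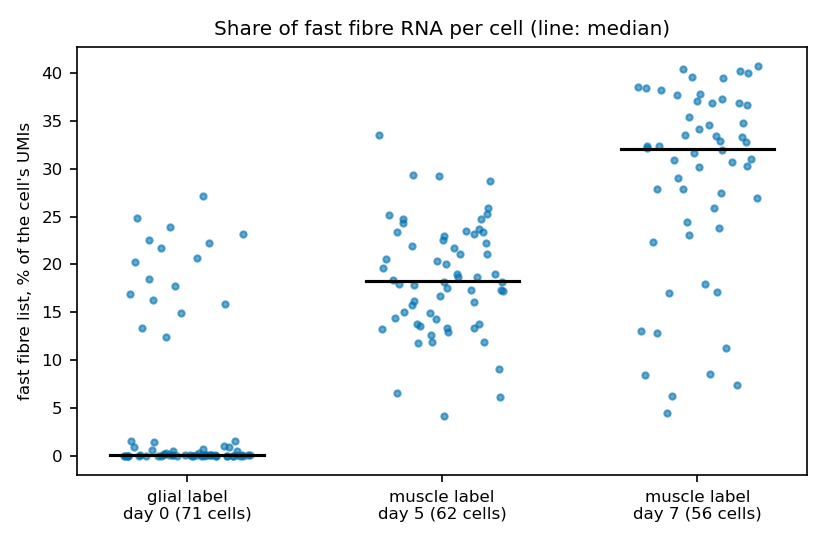
Share of each cell's UMIs on the 16 genes of the fast fibre list (vertical axis, percent), 1 point per cell with arbitrary sideways spread and a line at the median, for the day 0 glial label and the muscle label at days 5 and 7. In the glial label 17 cells sit at 12.4% to 27.1%, and the other 54 lie at or below 1.52%.

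Those 17 cells were chosen by their share on the fast fibre list, so that fast genes are high in them is fixed by the choice, and cells with slow forms alone would have been left out; their levels are a description. Acta1 led at 50493 (49103 to 51913) cpm, followed by Tnnc2 (30059.7), Mylpf (25524), Myl1 (25504) and Tpm1 (24747). Tnnt3 stood at 19565, Tnni2 at 17070.2, Ckm at 16696, Tpm2 at 14292, Mb at 9919 and Pvalb at 9606 cpm. Eno3, Atp2a1, Tcap, Des, Myoz1, Actn3, Myh1 and Actn2 lay from 6020.0 down to 1071 cpm, and Ldb3, Mybpc1, Mef2c, Casq1, Mybpc2, Neb, Ttn and Myl3 from 626 down to 90.9. The slow Tnnt1, Tnni1, Tnnc1 and Myl2 had no UMI, which allows up to 30.3 cpm each. The slow Mybpc1 stood at 515 (384 to 677) cpm in 16 of the 17 cells, above its fast counterpart Mybpc2 at 263 (172 to 385) cpm in 8 cells. Among heavy chains Myh1 held 95.04% (89.5 to 98.2), 115 UMIs in 12 cells, and Myh4 3.31%, 4 UMIs in 3 cells. In the FAPs label of the same table, which had 83 heavy chain molecules, Myh4 held 57.8% (46.5 to 68.6) and Myh1 36.1% (25.9 to 47.4). The other 54 cells of the glial label had 7 such molecules, too few to order. Early Actc1 stood at 50.5 and Myl4 at 10.1 cpm, and Myh2 at 20.2.

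In the MuSC label at day 2, all 4 measured early forms and all 8 measured fast forms stood at least 2-fold above the FAPs label, with median log2 ratios of 7.19 and 4.49. Of these early forms, Myh3, Actc1 and Tnnt2 had 51, 60 and 104 UMIs there and 2 each in the FAPs. With so few in the FAPs, a gene reached 20 UMIs only where it was high in the MuSC label. The count and median of the early forms, and the 24 of 26 below, are thus set in part by this rule. The level itself was higher in several fast genes, such as Tnni2 at 189 and Mylpf at 173 cpm, than in any early form. On the fast fibre list, 1 of the 58 cells had 1.87% of its UMIs, against a median of 0.028%. Ttn, whose protein spans the sarcomere from Z-disc to M-line, was at 185 (166 to 207) cpm against 0.217 in the FAPs label, and Tnnt2 at 59.7 (48.8 to 72.3), Actc1 at 34.4 (26.3 to 44.3) and Myh3, the embryonic heavy chain, at 29.3 (21.8 to 38.5) cpm. The highest members were Eno3 at 674, Tpm1 at 609, Des at 576 and Tpm2 at 206 cpm. Against the FAPs label 24 of 26 measured genes were higher and 2 lower, where 19.7% of 11686 genes were higher and 29.5% lower. At days 2 and 5 the FAPs had the lowest fibre level of the other labels, so a gene above them is not above every label: Tnni2 was at 215 cpm in the day 2 label B cells. The largest ratios were 9.74 (7.87 to 12.79) for Ttn, 8.10 (6.21 to 11.17) for Tnnt2, 7.49 (4.91 to 12.83) for Mybph, 7.31 (5.39 to 10.39) for Actc1 and 7.07 (5.15 to 10.16) for Myh3. In the FAPs these genes had few UMIs (2 of Ttn and 2 of Tnnt2), hence the wide intervals. The 2 lower genes were Mef2c (-1.17) and Myl2 (-2.02). Myh3 made up 79.7% (67.8 to 88.7) of the heavy chain molecules, Actc1 26.7% (21.0 to 33.0) of actin, Tnni1 19.95% (16.2 to 24.1) of troponin I, and Tnnt2, Tnnt1 and Tnnt3 34.2%, 22.7% and 43.1% of troponin T. As means of per-cell shares Actc1, Tnni1 and Tnnt2 held 17.7%, 7.94% and 26.5%. Of the 51 Myh3 molecules 50 lay in cells with a Myog UMI, and Myh8 and Myh2 were not listed at this day. Mb, Mybpc2 and Myl3 had no UMI, which allows up to 1.72 cpm.

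At day 5 the label was small and shallow and had no Myog UMI. Of 20 measured genes 6 were higher than in the FAPs and 1 lower, where 15.7% of 8049 genes were higher and 19.5% lower. Higher were Mybpc1 (181, interval 115 to 272 cpm, log2 ratio 5.72), Tnnt1 (118, interval 66.1 to 195, 5.26), Des (236, interval 159 to 337, 4.14), Actn3 (3.28), Myl4 (2.06) and Tpm2 (1.47), and Mef2c was lower from 1 UMI (-2.08, interval -7.40 to 0.43). Mybpc1 had 23 UMIs in 15 of the 40 cells. A further 1055 genes, none of them a member, could not be placed, since a count of 0 in the shallow sum left their side of the threshold unknown. Of the other early forms, Actc1 had 1 UMI, Tnnt2 had 0, which allows up to 23.6 cpm, and Myh3 was not listed. Among the troponin T molecules Tnnt1 held 68.2% (45.1 to 86.1). In all, 12 of the 38 listed genes had no UMI.

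At day 7 Des, Tpm1, Tpm2, Actc1 and Acta1 had the highest levels. Actc1 stood at 237 (219.7 to 256) cpm, Tnnt2 at 109 (96.7 to 121) and Tnni1 at 42.8 (35.5 to 51.2) cpm, and Actc1 held 61.7% (58.7 to 64.6) of actin molecules, against 2.94% in the muscle label of the same library. These molecules lay in 54 of the 396 cells: as a mean of per-cell shares Actc1 held 23.7% in the MuSC label and 2.43% in the muscle label. Tnni1 held 49.0% (42.6 to 55.4) of troponin I (29.5% as a mean of per-cell shares) and Tnnt2 46.3% (42.4 to 50.2) of troponin T (17.2% in the same way). Against the FAPs label 12 of 30 measured genes were higher and 1 lower, where 17.1% of 12313 genes were called in each direction. The 12 were Tnnt2 (6.21), Mybpc1 (5.21), Ttn (5.00), Neb (4.89), Actc1 (4.81), Atp2a1 (4.10), Actn3 (4.02), Tnnt1 (4.00), Des (3.83), Tnni1 (3.02), Eno3 (1.13) and Tpm2 (1.11). Mybpc2 was lower from 1 UMI (-2.11, interval -7.49 to 0.54). The abundant fibre genes sat at the FAP level: Myl1 was at 115 cpm against 122, Mylpf at 142 against 165, Tnnc2 at 93.9 against 94.9, Tnni2 at 44.6 against 43.7 and Acta1 at 147 against 153 cpm. Other labels differed from the FAPs in both directions. Myl1 and Mylpf stood at 64.8 and 89.4 cpm in the label for natural killer (NK) and T cells. In the anti-inflammatory macrophages they stood at 178 and 249 cpm. Myh3 stood at 3.93 (1.96 to 7.03) cpm and made up 11 of the label's 20 heavy chain molecules.

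Set against day 2, the MuSC label at day 7 had 11 of 28 measured genes higher and 7 lower, where 25.8% of 9868 genes were higher and 8.55% lower. By group these were 1 higher and 1 lower of 4 early forms, 2 and 1 of 4 slow forms, 4 and 2 of 9 fast forms, 1 and 1 of 2 metabolic genes and 3 and 2 of 9 scaffold genes and regulators. The early forms parted: Actc1 went from 34.4 to 237 cpm (2.79, interval 2.40 to 3.19; 1.28 with each cell weighted equally) and Myh3 from 29.3 to 3.93 (-2.90, interval -3.99 to -1.94). Higher and also at least 2-fold above the FAPs at day 7 were Actc1, Mybpc1 (4.98, interval 3.40 to 7.27), Atp2a1 (1.98, interval 1.46 to 2.54), Actn3 (1.55), Tnnt1 (1.18) and Neb (1.07). Mybpc1, with 3 UMIs at day 2, lost its call when cells were thinned to 1000 UMIs (0.17). The other 5 higher genes, Tcap (3.48), Myoz1 (2.43), Pvalb (2.31), Ckm (1.62) and Mef2c (1.05), were not, and Mef2c turned to -0.67 when each cell was weighted equally. Lower were Eno3 (674 to 36.8 cpm, -4.20, interval -4.50 to -3.91), Mybph (-3.77), Myh3, Tnnc1 (-2.36), Tnni2 (189 to 44.6, -2.08), Ttn (-1.25) and Tnnt3 (-1.06).

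The comparisons with day 5 rest on 127030 UMIs in 40 cells. Day 5 over day 2 had 6 of 23 measured genes higher and 8 lower, where 19.9% of 6441 genes were higher and 23.6% lower. Mybpc1 went from 1.72 (0.355 to 5.03) to 181 (115 to 272) cpm (6.72, interval 4.99 to 9.10), and with Tnnt1 (1.58) and Actn3 (1.48) it was also at least 2-fold above the FAPs at day 5. Tnnc2 (1.83), Pvalb (3.51) and Ckm (2.01) were not. Lower were Eno3 (-5.42, interval -8.47 to -3.56), Tnni1 (-2.58, interval -7.90 to -0.06), Actc1 (-2.13, interval -7.46 to 0.40), Tpm1 (-1.95), Tnni2 (-1.41), Des (-1.29), Ttn (-1.10) and Tnnt2, whose bound was -1.34 or lower. Without the cell that held the most UMIs of each gene, 5 were lower. Day 7 over day 5 had 8 of 25 higher and 5 lower, where 20.8% of 8042 genes were higher and 15.9% lower. Actc1 (4.91, interval 2.43 to 10.22), Tnnt2 (a bound of at least 2.20), Tnni1 (2.44, interval -0.06 to 7.76), Tpm2 (1.28), Eno3 (1.22, interval -0.67 to 4.29) and Atp2a1 (1.01) were higher and also above the FAPs, while Mef2c (1.67, interval -0.86 to 6.99) and Tpm1 (1.15) were higher and not above them. Mb (-1.80, interval -3.56 to 0.60), Mybpc1 (-1.74), Tnnc2 (-1.55), Tcap (-1.29) and Pvalb (-1.20) were lower. For Tnni1, Eno3, Atp2a1, Mef2c, Mb and Tcap the counting interval reached equality. Myog itself stood at 395, 0 and 826 cpm at the 3 days, and its part in these ratios was not tested.

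Within a day, the early forms Actc1, Tnnt2 and Myl4 were higher in cells of the MuSC label that held a Myog UMI. At day 2, 25 of 58 cells held one (median 36224 UMIs, against 32790 in the rest), and at day 7, 85 of 396 (6775 against 5590). At day 2, 17 of 22 measured genes were higher in the cells with Myog and 0 lower, where 2.75% of 6441 genes were higher and 3.45% lower; the members' median log2 ratio was 2.24. At day 7, 11 of 25 were higher and 0 lower, where 4.99% of 8879 genes were higher and 16.3% lower, with a median of 0.72. Some members reached 20 UMIs only through the cells with Myog and could only be called higher. At day 2 these included Actc1, Myh3, Tnni1 and Myl4 (60, 50, 79 and 47 UMIs with Myog, 0, 1, 3 and 3 without). At day 7 they included Actc1 and Tnnt2 (653 and 297 with, 12 and 7 without). The counts are thus set in part by this rule. A cell without a Myog UMI may still hold Myog RNA that was not captured.

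**Figure D4:**
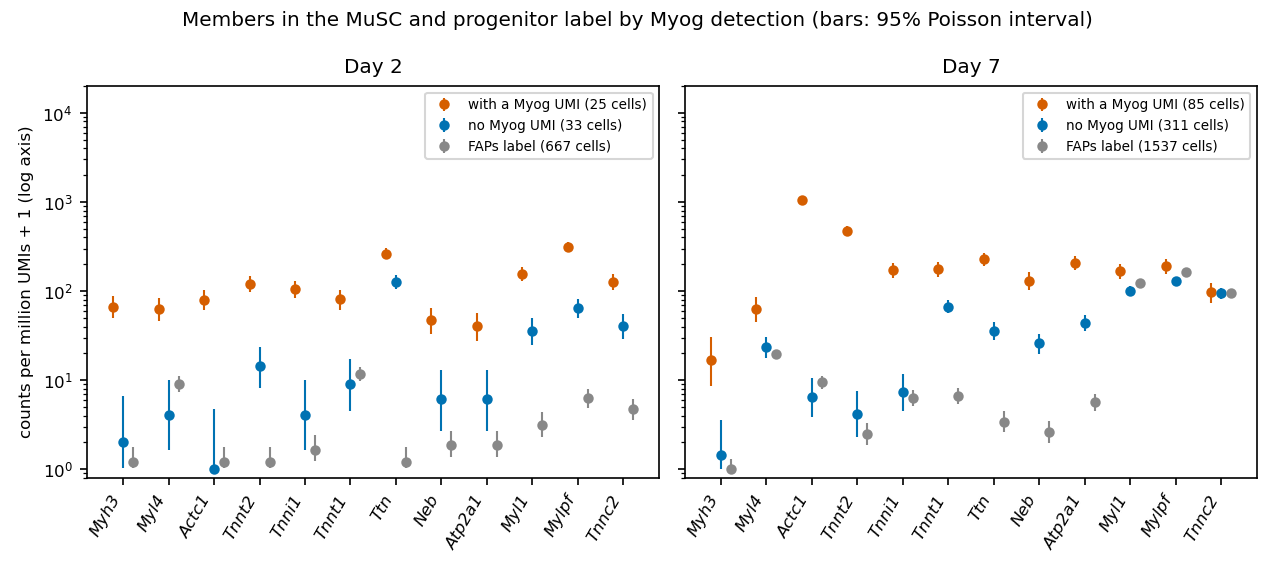
Level (cpm + 1, log axis) of 12 of the genes in MuSC-label cells with and without a Myog UMI at days 2 and 7 and in the FAPs label of the same day; points are sums over cells and bars are 95% counting intervals. Actc1, Tnnt2 and Tnni1 lie far apart between the strata on both days, and Tnnc2 parts at day 2 and coincides at day 7.

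Actc1 was at 0 in the cells without Myog at day 2 (up to 3.07 cpm) and at 78.6 (59.98 to 101) cpm in those with it, from 60 UMIs in 5 cells, a log2 ratio of at least 4.68. At day 7 it stood at 5.51 (2.85 to 9.63) and 1046 (967 to 1129) cpm (7.57, interval 6.75 to 8.53), in 42 of the 85 cells. It held 35.5% (28.3 to 43.2) of actin molecules in the Myog cells at day 2 and 79.3% (76.4 to 82.1) at day 7, and 4.71% in the cells without Myog at day 7. Of the label's 665 Actc1 molecules at day 7, 653 lay in cells with Myog. Tnnt2 stood at 13.3 without and 119 cpm with Myog at day 2 (3.17, interval 2.32 to 4.13) and at 3.22 and 476 at day 7 (7.21, interval 6.15 to 8.54), in 36 cells. Tnni1 stood at 3.07 and 103 cpm at day 2 (5.08) and at 6.43 and 169.7 at day 7 (4.72), in 26 cells of which 1 held 40.6% of the UMIs. Its share of troponin I was 27.0% and 76.8% in the Myog cells. Myh3 was at 1.02 and 65.5 cpm at day 2 (6.00, interval 3.46 to 11.33), in 5 cells.

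The fast forms were where the days differed in count: 6 of 7 measured fast forms were higher with Myog at day 2 and 1 of 9 at day 7, a difference between days that was not tested. Myl1, Mylpf and Tnnc2 lay near the FAPs label in both strata at day 7. In the order no Myog, Myog, FAPs, Myl1 stood at 100, 165 and 122 cpm and Mylpf at 128, 189 and 165. Tnnc2 stood at 93.3, 96.1 and 94.9 cpm. Atp2a1 and Actn3 stood above the FAPs in both strata. How far this level bears on the count was not tested. At day 2 the ratios were 2.94 for Atp2a1, 2.37 for Tnnt3, 2.31 for Mylpf, 2.17 for Myl1 and 1.66 for Tnnc2. Of the 25 cells with Myog at day 2, 1 had 1.87% of its UMIs on the fast fibre list, against a median of 0.045%. The median in the cells without Myog was 0.019%. The part of that 1 cell in these ratios was not tested. At day 7 Atp2a1 was higher (42.7 and 207 cpm, 2.27, interval 1.88 to 2.67), and so were the scaffold genes Ttn (2.70), Neb (2.39), Tpm2 (1.48), Tpm1 (1.35) and Acta1 (1.29), with Myl4 (1.47) and Tnnt1 (1.41). The lowest ratios at day 7 were those of Myoz1 (-0.66), Mef2c (-0.62) and Ckm (-0.29), and at day 2 those of Tpm1 (0.08), Eno3 (0.10) and Actn3 (0.14). Among further muscle genes, Klhl41, which stabilises nebulin, was at 5.30 (3.63 to 7.65) at day 7, and Tmem8c, the fusion gene now called Mymk, at 3.09 (2.32 to 3.94) at day 2 and 8.32 (6.44 to 11.37) at day 7. Of the excitation and calcium genes 4 of 10 were higher at day 2 and 7 of 11 at day 7, and none lower. Over all measured genes 2.75% were higher and 3.45% lower at day 2, and 4.99% and 16.3% at day 7. The strata differed in other markers at day 7. The 5 smooth muscle and pericyte markers summed to 2548 cpm with Myog and 639 without, nearly all of it Acta2 (2498 and 479), with Myh11 at 0 and 0.919. The 5 macrophage markers summed to 1355 and 6247 cpm and the 6 FAP markers to 1366 and 2796; their part in the result was not tested.

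Fibre RNA was also counted in cells of every other label, at a low level that differed by day. Over labels of at least 20 cells other than the MuSC and muscle labels (and, at day 0, which had no MuSC label, the mixed glial label), the fast fibre list stood between 171 (tenocytes) and 371 cpm (endothelial) at day 0, between 33.0 (FAPs) and 237 (the label B cells) at day 2, between 896 (FAPs) and 1552 (macrophages, antigen-presenting cells (APCs) and T cells) at day 5, and between 355 (macrophages and APCs 2) and 1069 cpm (anti-inflammatory macrophages) at day 7. In the FAPs it went 283, 33.0, 896 and 721 cpm through days 0, 2, 5 and 7, so the day 2 library had the least and the day 5 library the most. A UMI of the list was found in 61.4%, 32.5%, 86.7% and 87.2% of FAPs, and after thinning each cell to 1000 UMIs in 23.0%, 3.75%, 55.7% and 35.8%. In the muscle label every one of the 62 and 56 cells had one.

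**Figure D5:**
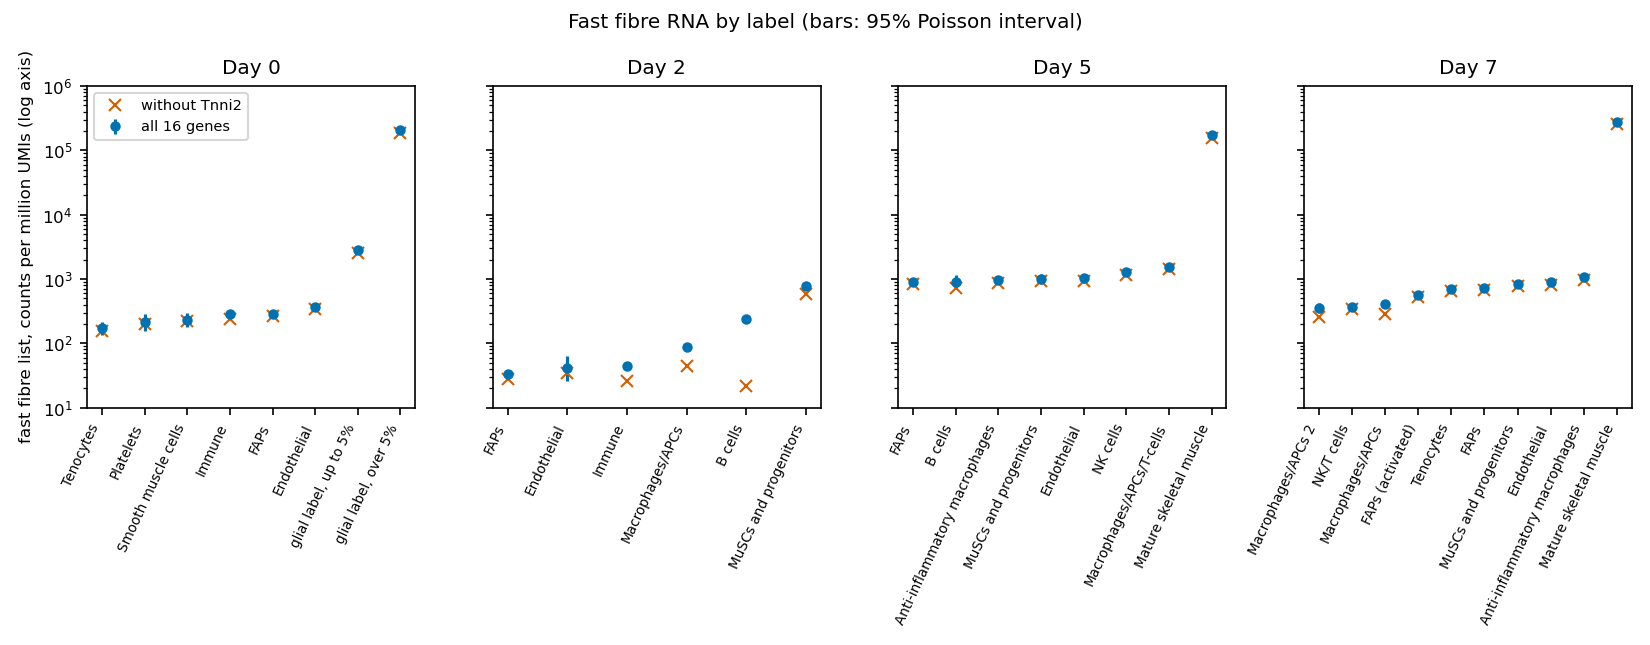
Level of the fast fibre list (cpm, log axis) in each label of at least 20 cells on each day, with the day 0 glial label split by the share on the list; circles with 95% counting intervals are all 16 genes and crosses leave out Tnni2. The muscle label lies far above the others at days 5 and 7, the other labels are lowest at day 2, and there the label B cells falls from 237 to 22 cpm without Tnni2.

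The ratio between the muscle label and the FAPs was also taken gene by gene. At day 5 the muscle label stood 105-fold (Myh4) to 239-fold (Mylpf) above the FAPs over the 10 genes with enough UMIs, with a median of 174-fold. At day 7 the range over 13 genes was 74.6-fold (Casq1) to 448-fold (Tnni2) with a median of 376-fold, and at day 0, 278-fold (Actn3) to 1031-fold (Atp2a1) over 12 genes with a median of 646-fold. The reference at day 0 was the 17 fibre-rich cells, chosen by their share on the same list, so the size of those folds is set in part by the choice and is not comparable with days 5 and 7. In certain immune labels some genes stood outside the ratio of the rest. Tnni2 made up 8.61% and 7.04% of the list in the muscle label and 6.06% in the FAPs at day 7, but 29.1% in macrophages and APCs at day 7 and 50.6% at day 2. In the day 2 label B cells it made up 90.7%, at 215 (193 to 239) cpm, and without it the list there stood at 22 cpm. That label had the defining B cell genes Cd79a at 0, Cd79b at 0.611 and Ms4a1 at 1.22 cpm, so its name does not match these markers. Atp2a1 stood at 17.3 (13.7 to 21.6) and 17.3 (11.8 to 24.4) cpm in macrophages and APCs at days 2 and 7, where the muscle label was 44.2-fold above it at day 7 against a median of 946-fold over the list.

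Several of the 39 genes are not confined to muscle fibres. Eno3 stood at 486 cpm in the macrophages and APCs 2 of day 7, above 36.8 in the MuSC label. Mef2c, a transcription factor of muscle, vessels and blood cells, was at 209, 162, 307 and 185 cpm in endothelial cells at days 0, 2, 5 and 7, and at 537 and 473 in the muscle label. In the smooth muscle label of day 0, Tpm2 stood at 1949.9, Tpm1 at 1265, Des at 186 and Actc1 at 52.7 cpm; tropomyosins and desmin are also made by smooth muscle. Tenocytes, the tendon cells, held Tpm1 at 508 cpm at day 0 and 608 at day 7. Myl2 had 43 UMIs in the FAPs of day 2 and none in the muscle label at days 5 and 7.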

How the data were processed

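Single-cell RNA was measured in tibialis anterior cells sorted as alive, with 1 table a day. Per the submitters' processing notes, the build mm10 and the tools Seurat 2.3.4, R 3.6.2 and Cell Ranger 2 were used, in roles that are not given. Each day's deposited raw table has genes in rows, cell barcodes in columns and UMI counts as values, and lists only genes with a UMI in at least 3 barcodes. The deposited normalized tables hold values on a natural log scale, ln of 1 plus counts scaled per cell, and served only to compare signs. Cell labels are the authors' own, and barcodes without a label (14, 21, 13 and 9) were left out of all sums. The injury column of the deposited cell tables reads day 0 throughout, so days came from the sample labels.

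Counts were summed per label and day with Python 3.11.15 and numpy 2.4.6 and divided by the summed UMIs times 1000000. Intervals (scipy 1.17.1) are exact Poisson for levels and Clopper-Pearson for shares and for the split of 2 counts, all at 95%. A 0 was set to 3 counts and given as a bound. The scripts were tested on simulated counts. No doublet caller was run, and the 5% of cells with the most UMIs were left out in an alternative. Other alternatives changed the scaling, the low-count filter, the cell weighting and the depth. All 39 members are named, in full at both ends of each family and for the 3 largest and 3 smallest ratios of a comparison, with up to 4 genes of each further muscle list by largest or smallest ratio. The members and lists were chosen with earlier results of these data known. The levels of the glial label's own markers are not reported here.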

Additional observations from a re-analysis of the deposited data

Results flagged for a closer look

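Tnnt2 moved in opposite directions between days 5 and 7 in the muscle and MuSC labels. In the muscle label its log2 ratio was -2.59, while in the MuSC label it went from 0 to 304 UMIs, a log2 ratio of at least 2.20. Each side rests on 1 library a day, and the difference between the labels was not tested.

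Barcodes without a label, which enter no sum of the report, also held muscle RNA. At day 0 the 14 such barcodes held the fast fibre list at 4142 cpm, 92.9% of it in a single barcode of 1772 UMIs that had 13.3% of its UMIs on the list, and without that barcode the level was 302 cpm. At day 2 the 21 barcodes, with a median of 51552 UMIs, held the embryonic and early forms at 763 cpm and the fast fibre list at 2480 cpm. There 1 barcode of 53415 UMIs held 85.3% and 83.7% of these sums, and without it they were 120 and 432 cpm, against 152 and 779 in the MuSC label. At day 7 the 9 barcodes held the fast fibre list at 5829 cpm, 96.2% of it in a barcode of 2807 UMIs, and 226 cpm without it.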

How the results depend on the processing

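No paired analysis was possible because each injured day is 1 library and the groups share fewer than 2 replicate numbers, and for the same reason no replicate could be left out. Of 88 values that answer a comparison, 68 were unchanged by the settings tried and 20 moved; of 582 values of single genes or labels 495 were unchanged, 86 moved and 1 reversed. All 61 ratios of called members kept their sign in the deposited normalized values. In the muscle label, the 7 lower genes became 4 with a scaling to the median ratio and with totals that leave the members out, and 3 with cells thinned to 1000 UMIs. In the MuSC label at day 5 over day 2, the 6 higher genes became 10 without a filter on low counts and 1 after thinning, and the 8 lower became 5 after thinning and 5 without the cell with the most UMIs of each gene, a setting chosen after seeing the data. At day 7 over day 5, the 8 higher became 5 with each cell weighted equally and 3 after thinning, and the 5 lower became 3 after thinning. At day 7 over day 2, the 11 higher became 6 after thinning, and Mef2c reversed to -0.67 with each cell weighted equally. Thinning left 31, 6, 17 and 18 members with enough UMIs in these comparisons. The FAPs' fibre level of 283 cpm at day 0 was 305 with each cell weighted equally. At day 5 the 896 cpm became 949.6 with equal weights and 795 without cells over 1% on the list. At day 7 the 721 cpm became 764 and 563 under the same settings and 738 without mitochondrial genes in the totals. As a mean of per-cell shares, the Actc1 share of actin at day 7 was 23.7% in place of 61.7% in the MuSC label and 2.43% in place of 2.94% in the muscle label, and the Tnni1 share of troponin I in the MuSC label was 29.5% in place of 49.0%. With 127030 UMIs in the day 5 MuSC label, a gene with no UMI there may still stand at up to 23.6 cpm.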
